A study of Aspergillus nidulans with 8 samples.

Results

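Asperthecin is a red anthraquinone pigment of the ascospores, the sexual spores, of the filamentous fungus Aspergillus nidulans. Its known genes are aptA (AN6000), aptB (AN6001) and aptC (AN6002), and these 3 genes were taken by locus tag from the 11127 genes on the arrays. The reference table names them nscA, nscB and nscC and places them next to each other. All 3 had 3 probes each and all were among the 11109 genes tested. Transcripts were measured on 8 one-colour arrays of total RNA from whole colonies, labelled as mycelium and grown in darkness on solid agar. Colonies on CYAs medium and on CYA medium were taken after 4, 8 or 10 days, with 3 arrays for either medium. Those on YES medium were taken after 4 or 10 days, with 2 arrays. The labels give neither a strain nor the composition of the media. They read YESs in the titles of both YES samples, which were taken as YES. There was 1 array per medium and day, so no spread between cultures of one condition exists.

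As background, aptA encodes the non-reducing polyketide synthase, the enzyme that assembles the carbon chain of the anthraquinone. The product of aptB is a hydrolase of the metallo-beta-lactamase type that releases this chain from the synthase, and aptC encodes a monooxygenase that acts on the released product. Ascospores form inside closed fruiting bodies, which are surrounded by nursing cells called Hülle cells. Conidia, the asexual spores, carry a different polyketide pigment, made by the synthase that the reference table calls pksP.

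Levels are log2 signals relative to the 75th percentile of the same array, averaged over the 3 probes of a gene. A level of 0 is therefore the 75th percentile of that array, and levels of different genes are not compared because each probe has its own brightness. Over arrays that 75th percentile was a signal of 1481 to 4976, and 10878 to 11114 genes had a probe well above background on each array. No spot was saturated. The arrays lay on 2 slides. The 3 CYAs arrays shared slide 2 with CYA day 10, and the other 4 were on slide 1. One array stands apart. It is CYAs day 8. Leaving out the asperthecin genes, 177 genes had a level on CYA day 8 that exceeded CYAs days 4 and 10 by 16-fold or more. Their scaled signal on CYAs day 8 was a narrowly spread share of that on CYA day 8, with a median of 0.216 and an interquartile range of 0.202 to 0.231. The 3 asperthecin genes meet the same 16-fold rule, and their shares were 0.287 for aptA, 0.233 for aptB and 0.220 for aptC. Of the 177 genes 1.13% had a larger share than aptA, 22.6% a larger one than aptB and 45.8% a larger one than aptC. Whether the CYAs day 8 sample shares RNA with CYA day 8 was not tested and cannot be settled from these values. Its levels are therefore those of the array so labelled, and the contrasts fitted with it are given with and without it.

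The polyketide synthase gene aptA was near the bottom of the scale on 4 arrays and high on the other 4. On CYAs its levels at days 4, 8 and 10 were -6.22, 3.71 and -5.21. On YES it was -5.21 on day 4 and 4.95 on day 10. The CYA levels at days 4, 8 and 10 were -5.20, 5.51 and 3.53. The high arrays were thus CYA days 8 and 10, YES day 10 and CYAs day 8, and the low ones were all 3 arrays of day 4 and CYAs day 10. Both slides held high and low arrays. Before scaling, the mean aptA signal was 36.3 to 82.5 on the low arrays and 21211 to 153301 on the high ones. On the low arrays all 3 probes were called well above background, where the dimmest spot so called on an array had a signal of 7.52 to 13.8. The 4 low levels spread by 1.02 on the scaled values, and the mean unscaled signals of CYAs days 4 and 10 were 36.3 and 40.0. The 3 aptA probes stood close together at -6.26, -6.32 and -6.08 on CYAs day 4 and at -5.48, -5.27 and -4.87 on CYAs day 10. They were further apart on YES day 4 (-6.17, -4.96 and -4.50), CYA day 4 (-6.13, -5.04 and -4.41) and CYA day 8 (4.04, 6.05 and 6.45). How far the low aptA values are background signal was not tested, and differences that use them carry this limit.

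The hydrolase gene aptB had the same high and low arrays. On CYAs its level was -2.20, 2.38 and -1.38 on days 4, 8 and 10. On YES it was -2.12 on day 4 and 3.73 on day 10, and on CYA it was -2.04, 4.48 and 2.52 on days 4, 8 and 10. For the monooxygenase gene aptC, the CYAs levels were -3.56, -0.05 and -3.57 on days 4, 8 and 10. The YES levels of aptC were -2.90 and 0.87 on days 4 and 10, and the CYA levels were -3.40, 2.14 and -0.38 on days 4, 8 and 10. In each gene the highest array was CYA day 8 and the next was YES day 10, and the levels of the 4 high arrays did not overlap those of the 4 low ones. Fewer cells that carry a transcript and less transcript per cell cannot be told apart in RNA of whole colonies.

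**Figure D1:**
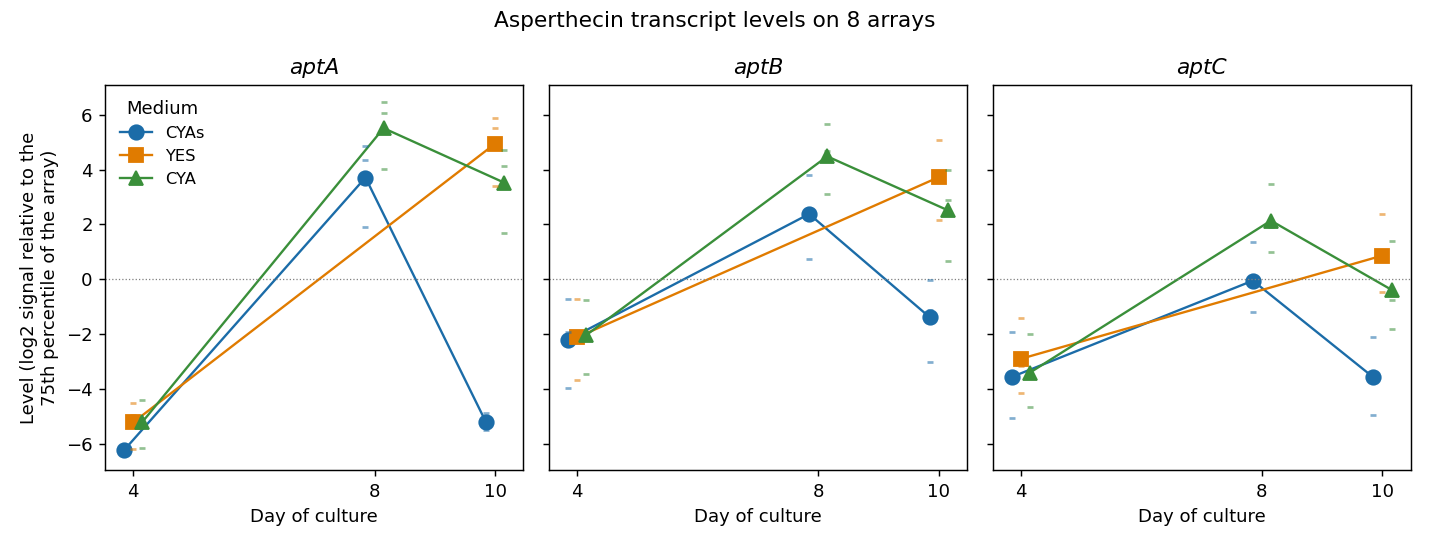
Levels of aptA, aptB and aptC (log2 signal relative to the 75th percentile of the array) against the day of culture on CYAs, YES and CYA, with large symbols for the mean of 3 probes and small dashes for single probes, and points of the media set slightly apart along the day axis. All 3 genes are low on day 4 in every medium, high on day 8 on CYAs and CYA and on day 10 on YES and CYA, and low again on CYAs day 10, where aptA stands at -5.21; heights are not comparable between genes.

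The distance between the lowest high array and the highest low array was 8.72 for aptA (log2), 3.76 for aptB and 2.52 for aptC. Without CYAs day 8 it was 8.72, 3.90 and 2.52. These 4 arrays were singled out after the values were seen, so the distances are a description. Of the 11109 genes tested, 4.23% were higher on each of these 4 arrays than on each of the others and 0.396% were so by at least 4-fold. No gene had a wider distance than aptA, 12 genes exceeded aptB and 32 exceeded aptC. The full range over the 8 arrays was 11.7 for aptA, 6.68 for aptB and 5.71 for aptC, against a median range of 1.68 over all genes tested. Only 2 genes ranged more widely than aptA, whose low values carry the limit given above.

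Probes of one gene gave the same picture. The SD between the 3 probes, after each probe's own mean was removed, had a median over arrays of 0.48 for aptA, 0.11 for aptB and 0.11 for aptC, and the median over all genes with 3 probes was 0.11. For aptA the probe at bases 5002 to 5061 of the transcript ranged over 10.3, the one at 5181 to 5240 over 12.4 and the one at 5257 to 5316 over 12.5. Each of these 3 probes was lowest on CYAs day 4 and highest on CYA day 8. The aptB probes ranged over 6.40 to 7.09 and the aptC probes over 5.59 to 6.06, and in all 9 probes the 4 high arrays lay above the 4 low ones.

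The order of the arrays within the high group and within the low group was less clear. The residual SD of a fit with medium and day as additive factors was 3.02 for aptA, 1.51 for aptB and 1.17 for aptC, which contains the error as well as whatever the additive form leaves out. Among neighbours in the order of levels, the step between the high and low groups exceeded this SD in all 3 genes. The step of 1.27 between CYA day 8 and YES day 10 exceeded it for aptC. No other step between neighbours exceeded it in any of the 3 genes.

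Within a medium, the question is how transcript levels differ with the age of the colony. From day 4 to day 8 on CYA, on slide 1, aptA was higher by 10.7 (log2, SD over its 3 probes 0.48), aptB by 6.52 (SD 0.11) and aptC by 5.54 (SD 0.11). All 3 genes thus passed 4-fold between these single arrays, as did 7.72% of the genes tested in the same direction. From day 4 to day 10 on YES, also on slide 1, the differences were 10.2 for aptA (SD 0.49), 5.84 for aptB (SD 0.039) and 3.77 for aptC (SD 0.069). All 3 again passed 4-fold, against 7.15% of genes. The SDs over probes cover the error of the probes only, not that between cultures.

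On CYA, day 10 minus day 8, taken across the 2 slides, was -1.99 for aptA, -1.96 for aptB and -2.52 for aptC. Only aptC was at least 4-fold lower in that step, as were 6.15% of genes, while the aptA and aptB differences stood just inside the 4-fold limit. Compared with day 4, CYA day 10 was still higher by 8.72 for aptA, 4.56 for aptB and 3.02 for aptC. All 3 passed 4-fold, against 4.09% of genes.

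Of the 3 arrays labelled CYAs, that of day 8 was the high one. The 3 genes were higher on day 8 than on day 4 by 9.93, 4.58 and 3.51 in the order aptA, aptB and aptC, and 3.77% of genes were at least 4-fold higher in that step. Day 10 minus day 8 was -8.92, -3.76 and -3.53, where 2.64% of genes were at least 4-fold lower. All 3 members passed 4-fold in both steps. Of the 11109 genes, none was lower by more than aptA in the latter step. Without CYAs day 8, the medium has a day 4 and a day 10 array only. Those 2 arrays differed by 1.01 for aptA, 0.82 for aptB and -0.01 for aptC, and no member reached 4-fold where 9.83% of genes were at least 4-fold higher and 1.92% at least 4-fold lower.

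Media were compared on the same day to ask how the substrate bears on the cluster. On day 4 all media had low levels. CYAs differed from CYA by -1.02 for aptA (SD over probes 0.80), -0.16 for aptB and -0.16 for aptC, and 0 of the 3 genes were at least 4-fold lower, against 3.35% of genes. YES differed from CYA on that day, within slide 1, by -0.01, -0.08 and 0.51 in the same order of genes, where 1.84% of genes were at least 4-fold higher, 2.07% were at least 4-fold lower and no member was either. YES minus CYAs was 1.01, 0.08 and 0.66 on day 4, where 3.6% of genes were at least 4-fold higher and no member was.

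On day 10 the media differed. Within slide 2, CYAs minus CYA was -8.74 for aptA (SD over probes 1.35), -3.90 for aptB (SD 0.21) and -3.19 for aptC (SD 0.28). All 3 genes were at least 4-fold lower, as were 2% of genes, and none of the genes tested was lower by more than aptA. YES stood above CYA by 1.42, 1.21 and 1.25 in the order aptA, aptB and aptC, so no member reached 4-fold where 6.49% of genes did. YES stood above CYAs by 10.2, 5.11 and 4.44, and all 3 genes passed 4-fold, against 6.27% of genes. On day 8, CYAs minus CYA was -1.80 for aptA, -2.10 for aptB and -2.19 for aptC. Of the 3 genes aptB and aptC were at least 4-fold lower, as were 2.57% of genes. This last set is the ratio described above for the CYAs day 8 array, and day 8 gives no other comparison of these media.

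**Figure D2:**
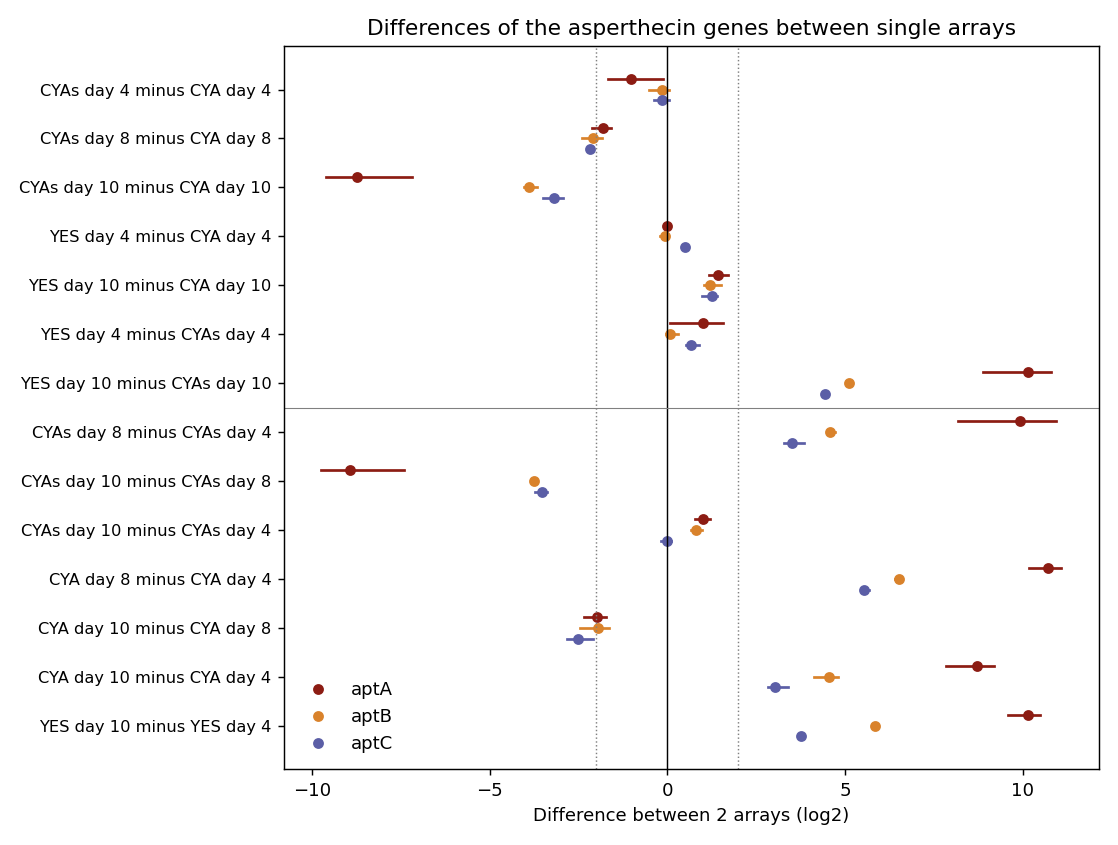
Differences of aptA, aptB and aptC between single arrays (log2), on the same day in different media above the grey line and within a medium below it, with points for the mean of 3 probes, bars from the lowest to the highest probe and dotted lines at 4-fold. CYAs day 10 minus CYA day 10 is -8.74 for aptA, whereas on day 4 the media differences of the 3 genes lie between -1.02 and 1.01.

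The additive fit of medium and day over all 8 arrays, tested with limma, called none of the 3 genes. Day 8 minus day 4 gave 11.2 for aptA (SE 2.2, limma adjusted p = 0.203), 6.08 for aptB (SE 1.12, adjusted p = 0.202) and 4.90 for aptC (SE 0.88, adjusted p = 0.202). Over all genes that comparison called 0.009%, which is 1 gene, with 1725 at an unadjusted p under 0.05. The unadjusted limma p-values of the members were 0.0033, 0.00247 and 0.00221. Without CYAs day 8 the differences were 9.66, 6.11 and 5.16, at limma adjusted p = 0.279, 0.258 and 0.256.

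Day 10 minus day 4 gave 6.63 for aptA (SE 1.88, limma adjusted p = 0.153), 3.74 for aptB (SE 0.95, adjusted p = 0.139) and 2.26 for aptC (SE 0.75, adjusted p = 0.179). It called 0% of genes, with 2473 at an unadjusted p under 0.05. CYAs minus CYA gave -3.85 for aptA (SE 1.88, limma adjusted p = 0.66), -2.05 for aptB (SE 0.95, adjusted p = 0.639) and -1.85 for aptC (SE 0.75, adjusted p = 0.587), again with 0% of genes called and 976 at an unadjusted p under 0.05. Without CYAs day 8 these were -4.88, -2.03 and -1.67, while day 10 minus day 4 kept its differences, at limma adjusted p = 0.233, 0.225 and 0.271. For YES minus CYAs the differences were 5.07, 2.61 and 2.64 at limma adjusted p = 0.367, 0.365 and 0.317, where 0.009% of genes were called. When CYAs day 8 was left out they were 5.58, 2.60 and 2.55, at limma adjusted p = 0.574, 0.603 and 0.571. Leaving out 1 array at a time gave 1.75 to 7.71 for aptA, 1.03 to 4.18 for aptB and 1.51 to 3.86 for aptC, and slide as a fixed block gave 9.12 for aptA. For YES minus CYA they were 1.22, 0.55 and 0.79 at limma adjusted p = 0.875, 0.89 and 0.806, where 0% of genes were called and 829 had an unadjusted p under 0.05. With CYAs day 8 left out they were 0.70, 0.56 and 0.88. An interaction of medium and day cannot be tested with 1 array per condition, and the fit averages the low CYAs day 10 array with the high CYA and YES arrays of that day.

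Most neighbours of the cluster had narrow ranges beside it. Of 5 locus tags on each side, taken by number from AN5995 to AN6007, all 10 were measured, with ranges over the 8 arrays between 0.62 and 4.51 and a median of 1.02. The widest range was that of AN6005, which stood at -1.17 on YES day 10 and between 1.38 and 3.34 on the other arrays. AN6003, next to aptC, ranged from -4.26 on CYA day 4 to -2.42 on YES day 10, and AN5999, next to aptA, ranged from -5.22 on CYA day 8 to -3.91 on YES day 4. Only AN6003 was higher on all 4 arrays where the cluster was high (1 of 10, against 4.23% of all genes). It was so by little, standing at -3.51 on CYAs day 8 and -3.61 on CYAs day 10. Over the 8 arrays, Pearson r with the mean of the members was 0.81 for AN5995 (range 0.83) and 0.81 for AN6003. The highest arrays of AN6003, YES day 10 and CYA day 8 (-2.46), were also those of the cluster. AN5997 (r = -0.99, range 0.64) and AN5999 were lower on all 4 arrays where the cluster was high (2 of 10). The share of all genes that were so was not counted. Limma called 0 of the 10 in any of the 5 contrasts of medium or day.

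**Figure D3:**
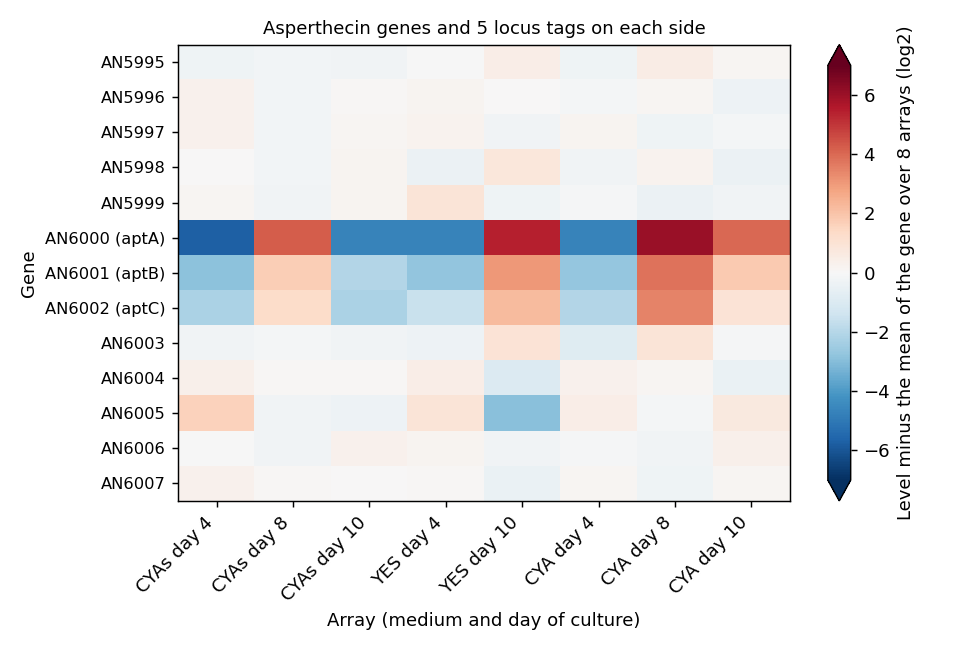
Levels of aptA, aptB, aptC and of 5 locus tags on each side on the 8 arrays, each gene minus its own mean (log2), in order of locus tag. The 3 asperthecin genes share red and blue arrays, with a range of 11.7 for aptA, while the flanking genes stay pale apart from AN6005 on YES day 10.

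Members and other genes were compared by profile, as Pearson correlation over the 8 arrays, which share slides and RNA labelling and of which none is a replicate. The correlation was 0.99 between aptA and aptB, 0.973 between aptA and aptC and 0.982 between aptB and aptC, and the lowest value without any 1 array was 0.967. Such values rest mainly on the step between the high and low arrays. The rank correlations were 0.952, 0.881 and 0.81.

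Among other genes with a range of at least 2, the 10 closest to the mean of the 3 members were AN11035 (r = 0.996), AN2330 (0.989), AN3488 (0.989), AN11856 (0.986), AN12099 (0.982), AN11973 (0.980), AN1257 (0.980), AN1707 (0.980), AN5348 (0.979) and AN7957 (0.979). The reference table gives none of these a symbol. AN11035 stood between -6.85 and -5.78 on the 4 low arrays and between -0.25 and 2.50 on the high ones. AN2330 ranged over 11.4, from -5.52 on CYA day 4 to 5.84 on CYA day 8, and stood at 3.76 on CYAs day 8 and -3.91 on CYAs day 10. In all 10 genes the high and low arrays were those of the cluster, which is a description because the genes were chosen by correlation over these same arrays. On CYAs day 8 the signal of these 10 genes was 0.187 to 0.236 of that on CYA day 8. All 10 meet the 16-fold rule and so belong to the 177 genes described above, whose median was 0.216. They were also chosen over arrays that include CYAs day 8, so these shares are no separate comparison. Without CYAs day 8, 8 of the 10 were again among the closest 10.

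Of genes with a symbol, the 5 closest were chsD (AN1046, r = 0.954), a chitin synthase gene, ksrA (AN1165, 0.942), pdeA (AN0829, 0.921), a phosphodiesterase gene, MAT1 (AN2755, 0.911) and car2 (AN1810, 0.903). MAT1 encodes a mating-type transcription factor. Its level was -6.98, -4.58 and -4.97 on CYAs days 4, 8 and 10, -6.54 and -2.32 on YES days 4 and 10, and -6.00, -2.48 and -4.12 on CYA days 4, 8 and 10. Its 2 highest arrays were YES day 10 and CYA day 8, whereas its CYAs levels of days 8 and 10 lay close together. The level of chsD on CYA day 10 was -1.17, below that on CYAs day 8 (0.93). On these arrays the levels of aptA differed by 0.18, those of aptB by 0.14 and those of aptC by 0.33.

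**Figure D4:**
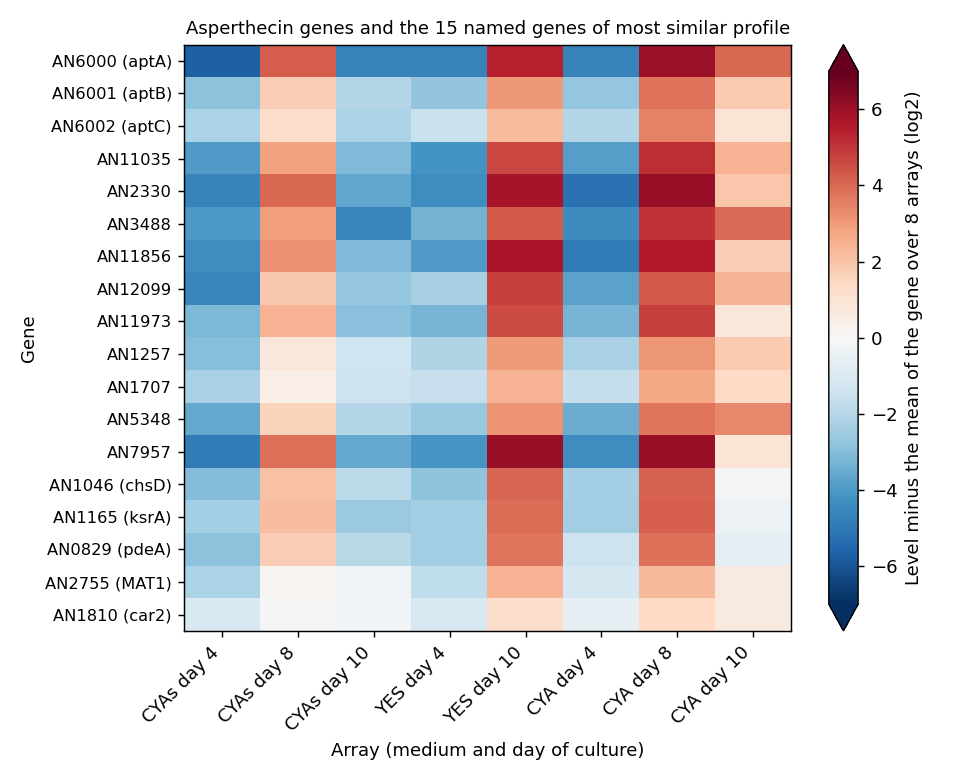
Levels of the 3 asperthecin genes, of the 10 genes closest in profile and of the 5 closest genes with a symbol in the reference, each gene minus its own mean over 8 arrays (log2). The upper rows share the high arrays of the cluster, and in chsD, ksrA and pdeA the CYA day 10 array is near or below the gene's mean instead of high.

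Genes with known parts in sexual development had mixed profiles. Of 10 such regulators, 1 (MAT1) was higher on all 4 arrays where the cluster was high, against 4.23% of all genes tested. Of the 10, 6 had a negative correlation with the members, as had 56.0% of all genes, and the median range was 1.77 against 1.68. The other mating-type gene, MAT2 (AN4734), stood at -2.95 on YES day 10 and -2.83 on CYA day 8, but at -4.13 on CYAs day 10 and -5.13 on CYA day 10. The gene nsdD (AN3152), a GATA-type factor needed for fruiting, stood between 0.15 and 1.63, with its lowest level on CYA day 8. The early sexual gene esdC (AN9121) was highest on CYAs day 10 (5.39), where the cluster was low, and on CYA day 10 (5.32), where it was high. Limma called 0 of the 10 in day 8 minus day 4 (median -0.46, against -0.11 over all genes) and 0 in day 10 minus day 4 (median 0.12, against 0.13).

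Markers of fruiting bodies and Hülle cells were measured because the pigment belongs to ascospores. All 5 had a probe above background on every array, and their correlations with the members ran from 0.07 to 0.75. The marker nearest to the cluster was AN7349, at -5.33, 4.54 and 2.61 on CYAs days 4, 8 and 10, -5.41 and 0.52 on YES days 4 and 10, and -1.25, 6.52 and 6.69 on CYA days 4, 8 and 10. It was above 0 on CYAs day 10, where aptA was low. On YES day 10 it stood below its CYA day 10 level, while aptA stood above. The summed linear level of the 5 markers was lowest on YES day 4 (6.09) and CYAs day 4 (6.12) and highest on CYA day 8 (103) and CYA day 10 (117), and it was 21.2 on CYAs day 10 and 9.22 on YES day 10. This sum depends on the brightness of each probe, and AN7349 alone made up 89.4% of it on CYA day 8 and 88.3% on CYA day 10. Of the other markers, AN6923 was, like AN7349, higher on day 10 than on day 4 in every medium. Its levels were -2.74, 0.08 and 1.84 on CYAs days 4, 8 and 10, and -3.43 and -1.74 on YES days 4 and 10. On CYA days 4, 8 and 10 AN6923 stood at 0.46, 0.68 and 1.49. By contrast, AN7388 stood at 2.68 on CYA day 4 and 1.58 on CYA day 8, and AN7570 and AN10516 ranged over 1.24 and 0.58 only. Limma called 0 of the 5 in each of the 5 contrasts. The part of these cells in the asperthecin levels was not tested.

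The 8 markers of conidia and conidiophores all correlated negatively with the members, between -0.80 and -0.30, where 56.0% of all tested genes did. None of the 8 was lower on all 4 arrays where the cluster was high, but the share of all genes that were so was not counted. Their summed linear level was 26.6 to 44.6 on CYAs and 42.6 on YES day 4, and 1.23 to 1.47 on CYA days 8 and 10 and YES day 10. It was 9.94 on CYA day 4. This sum was mainly that of rodA, dewA (AN8006) and pksP, which made up 96.2% of it on CYAs day 4 and 62.5% on CYA day 8. The regulators of conidiation brlA (AN0973), abaA (AN0422) and wetA (AN1937) ranged over 2.32, 1.97 and 2.82. The hydrophobin gene rodA (AN8803), which coats conidia, stood at 3.43 on CYAs day 8 and 4.16 on CYAs day 10, so that it did not separate these arrays as aptA did. Limma called 0 of the 8, and the part of conidia in the result was not tested.

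For regulators of secondary metabolite clusters, 10 velvet, chromatin and SUMO genes, the median range was 1.14, against 1.68 over all genes tested. The widest ranges were those of AN2059 (2.93, from -1.98 on CYA day 8 to 0.95 on CYAs day 4) and veA (2.68). Of the 10, velB (AN0363) and hdaA (AN8042) were higher on all 4 arrays where the cluster was high, against 4.23% of all genes, with velB at -1.78 on CYAs day 8 and -1.83 on CYAs day 4. The gene velB, of a velvet protein that acts in development, stood between -2.35 and -1.04, and hdaA, of a histone deacetylase, between -1.43 and -0.36. The gene sumO (AN1191), of the small ubiquitin-like modifier, whose deletion is known to raise asperthecin, stood between 1.40 and 1.97. The gene laeA (AN0807), of a global regulator of secondary metabolism, stood between -1.78 and -0.73, and veA (AN1052) had its lowest level, -1.85, on CYA day 8. Limma called 0 of the 10 in day 8 minus day 4 and in day 10 minus day 4.

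Other synthases of the same type had other profiles. All 13 other non-reducing polyketide synthase genes correlated negatively with the members (from -0.79 to -0.11), where 56.0% of all tested genes did. None of the 13 was lower on all 4 arrays where the cluster was high, but the share of all genes that were so was not counted. AN0523, AN1034 and AN3386 ranged over only 1.31, 1.66 and 1.01. From day 4 to day 8 on CYA, 7 of the 13 were at least 4-fold lower and 0 higher, with a median of -2.60, whereas aptA was higher by 10.7; over all tested genes 7.35% were at least 4-fold lower. From day 4 to day 10 on YES 7 were lower and 0 higher, with a median of -2.20, against 6.95% of genes. The CYAs arrays did not show this: from day 4 to day 10, 1 of the 13 was at least 4-fold lower and 0 higher. The median there was -0.50, and 1.92% of all genes were at least 4-fold lower. The conidial pigment synthase gene pksP (AN8209) stood at 3.42, 2.70 and 2.92 on CYAs days 4, 8 and 10, and at -0.56 on both YES day 10 and CYA day 8. Limma called 0 of the 13 in any contrast. The gene pksP is also 1 of the 8 conidium markers, and AN0150 is both 1 of the 13 and 1 of the 12 monodictyphenone genes.

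The monodictyphenone cluster makes the other anthraquinone-derived products of this fungus, and also pairs a polyketide synthase (AN0150, tpcC in the reference) with a hydrolase of the aptB type (AN0149, tpcB). The level of tpcC was highest on YES day 4 (5.13) and CYA day 4 (3.99), where aptA was low, and it was 1.39 on CYA day 8, where aptA was highest. The hydrolase gene tpcB stood at 4.13 and 2.94 on these day 4 arrays and at -0.55 on CYA day 8. On CYA, 7 of the 12 genes of the cluster were at least 4-fold lower on day 8 than on day 4 and 0 were higher (median -2.68), against 7.35% and 7.72% of all genes. On CYAs, 0 of the 12 were at least 4-fold lower on day 10 than on day 4 and 0 were higher (median -0.73), against 1.92% and 9.83% of all genes. Their correlations with the asperthecin genes ran from -0.79 to 0.02, and limma called 0 of the 12 in any contrast.

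**Figure D5:**
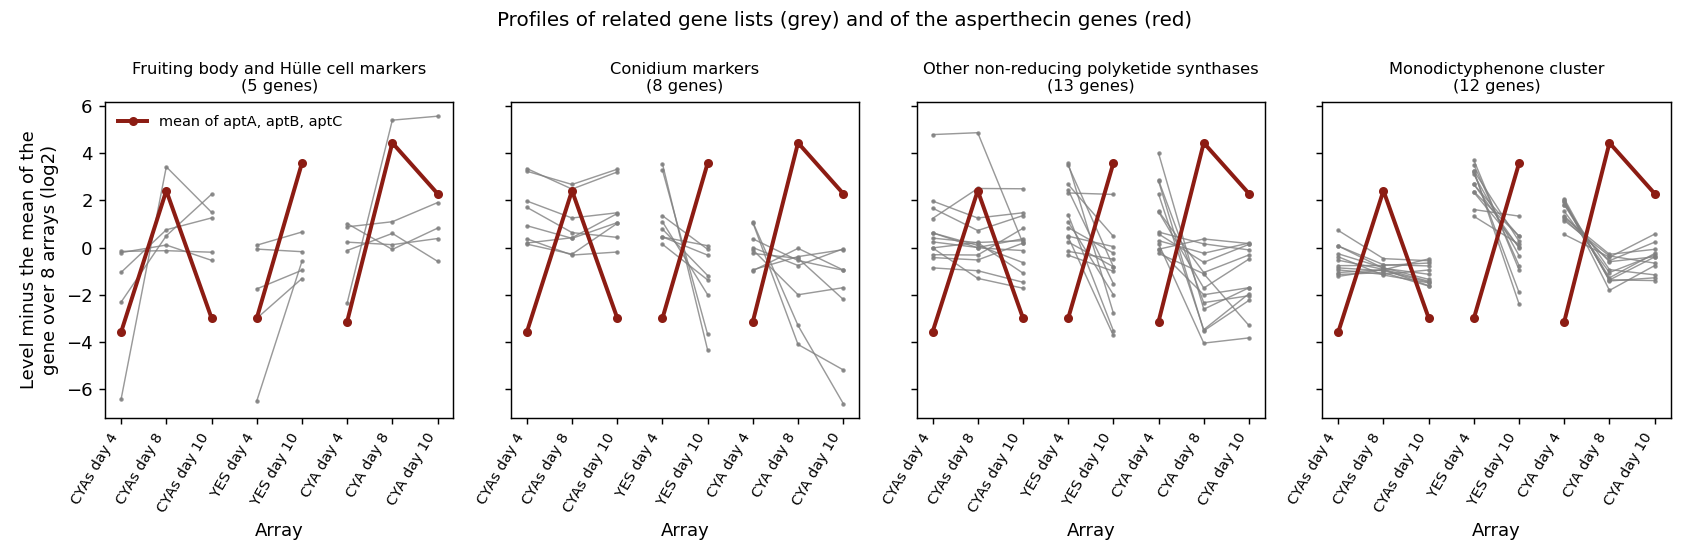
Levels on the 8 arrays, each gene minus its own mean (log2), for 5 markers of fruiting bodies and Hülle cells, 8 markers of conidia, 13 other non-reducing polyketide synthase genes and 12 monodictyphenone genes (grey lines), with the mean of aptA, aptB and aptC in red and lines drawn within a medium only. All 12 monodictyphenone genes stand above their mean on YES day 4 and CYA day 4, where the red line is low, while the conidium and synthase genes spread more widely there and the fruiting body markers lie on both sides of 0.

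In the authors' deposited table, which gives 1 log2 value per gene and array, the same arrays were high. There aptA was listed at 6.67 to 7.16 on the 4 low arrays and at 15.6 to 17.5 on the 4 high ones. Its values on CYAs days 4 and 10 were 6.67 on both, so that the difference of 1.01 seen after scaling to the 75th percentile was absent. The listed aptB values were 9.58 to 10.2 and 14.0 to 16.1, and those of aptC were 7.89 to 8.51 and 10.7 to 13.3, in the same order of groups.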

How the data were processed

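Per the file headers, the spot intensity values come from Agilent Feature Extraction 10.5.1.1, and the sources used here do not say how background was taken off the processed signal. A table of log2 values, 1 per gene and array, was deposited by the authors too. Limma and RMA appear in the submitters' processing notes, without version or role. Its column medians were 9.66 to 9.69, its values correlated at 0.980 to 0.983 with normexp-corrected, quantile-normalized signals, so it was taken to hold uncentred log2 values of each array, while its correction and normalization stay unknown. It served as an alternative.

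Values here are log2 of the processed signal minus the 75th percentile of each array. Control spots and non-uniform spots (0 to 19 per array) were left out, and probes of a gene were averaged. Genes with a probe well above background on at least 2 arrays were tested (18 were left out). Of the genes on the array 10413 matched the RefSeq table of strain FGSC A4, assembly ASM1142v1, used for symbols and for the order of neighbours. Its build is not known to be that of the array, and no sequences or coordinates were used.

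Contrasts were tested with limma 3.58.1 in R 4.3.3 (lmFit, eBayes; medium and day as additive factors, 3 residual and 2.25 prior degrees of freedom) with Benjamini-Hochberg adjustment over 11109 genes, and calls were made at 0.05. Differences between single arrays were set against 4-fold. The number of arrays limits the precision, and no label says that cultures were separate, so p-values measure only the spread between these arrays. The gene test was tested on simulated data. The members and lists were chosen with earlier results of these data known. The rule for named genes took the members, 5 locus tags on each side, the 10 genes closest in profile, the 5 closest with a symbol and the genes of the lists. The locus tags of the lists come from general knowledge of this fungus. Alternatives were other background correction and scaling, the authors' table, the median over probes, no filter, slide as a block (statmod 1.5.0, consensus correlation 0.786 as a random block), no day term and leaving out each array.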

Additional observations from a re-analysis of the deposited data

Results flagged for a closer look

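In each of the 3 genes a difference had opposite signs on different days or in different media. Each rests on 1 array per condition, and the difference between the effects was not tested. YES minus CYA was -0.01 on day 4 and 1.42 on day 10 for aptA, so the effects were 1.43 apart. For aptB it was -0.08 and 1.21, so the effects were 1.29 apart. For aptC, day 10 minus day 4 was -0.01 on CYAs, 3.02 on CYA and 3.77 on YES, so the effect on CYAs was 3.04 below that on CYA and 3.78 below that on YES. The negative value in each case was smaller than the SD between the 3 probes of its difference, which was 0.091 for aptA, 0.12 for aptB and 0.14 for aptC.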

How the results depend on the processing

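Under 16 alternatives for medium contrasts and 15 for day contrasts, the 3 members had the same sign as reported and were called by none in CYAs minus CYA, YES minus CYAs, day 8 minus day 4 and day 10 minus day 4. Over these alternatives the limma adjusted p of the members ran from 0.0783 to 1. YES minus CYA turned negative without a day term, at -1.41 for aptA, -0.85 for aptB and -0.47 for aptC. It also did so without YES day 10 (-1.43, -1.03 and -0.34), and leaving out each array in turn gave up to 3.86, 2.13 and 1.92. Leaving out each array, CYAs minus CYA ran from -5.69 to -1.19 for aptA, -3.23 to -0.90 for aptB and -2.82 to -1.005 for aptC, with the smallest size without CYAs day 10 in all 3. Medium and slide overlap, and slide as a fixed block moved aptA to -6.35 in CYAs minus CYA, 9.12 in YES minus CYAs and 2.78 in YES minus CYA. A day contrast cannot be fitted without a day term. No paired analysis was possible because replicate numbers name arrays only and day is already a factor of the fit (its removal is given above as no replicate block). All 168 single-array differences of the members under other values or scales moved by less than the residual SD. That limit is wide (3.02 for aptA, 1.51 for aptB and 1.17 for aptC), because this SD also holds what the additive form leaves out. A 4-fold shift of aptA would stay within it, so the count says little about smaller shifts. With normexp and quantile normalization aptA was 7.29 on CYAs day 4 and 15.2 on CYAs day 8. These are uncentred log2 signals, so they are not comparable with the reported levels of -6.22 and 3.71. The difference between these arrays is comparable, and for aptA it was 7.87 (log2) against 9.93 as reported. This shift is among those counted above as less than the residual SD. The median of all genes shifted by up to 0.18 (log2) between scalings.

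The number of genes called was small and unstable. YES minus CYAs called 1 gene, and 0 with normexp and quantile normalization, with the authors' table, with either slide block and without a day term, and 0 to 160 when arrays were left out (160 without YES day 4). Day 8 minus day 4 called 1, and 0 with the authors' table and with slide as a fixed block, and 0 to 73 when arrays were left out (73 without either YES array). Day 10 minus day 4 called 0, and 2 with normexp and quantile normalization. A lone array of a medium or day is assumed there to vary like the others. Of the 10 genes closest in profile, 4 to 10 were among the closest 10 when 1 array was left out (4 without CYA day 10, 5 without CYAs day 10), and 0 by rank correlation. There 15 genes tied at a correlation of 1, AN7957 of the 10 among them, and ties were broken by locus tag, so that 0 has no meaning beyond the tie.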
